A study of Mus musculus with 6 samples.

Results

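The nuclear-encoded genes of the respiratory chain were examined in RNA-seq of adult cardiomyocytes (CMs) in 3 CtrlCre and 3 Cpt1bcKO samples. The set was defined by gene symbol as all protein-coding genes starting with Nduf, Uqcr, Cox4 to Cox8 or Atp5, together with *Sdha*, *Sdhb*, *Sdhc*, *Sdhd*, *Cyc1* and *Cycs*. The rule uses symbols alone. It held 93 of the 16448 genes in the table. By complex these were 36 subunits of complex I, 8 complex I assembly factors with Ndufaf symbols, 4 subunits of complex II, 10 genes of complex III and cytochrome c, 18 of complex IV and 15 of complex V, plus *Atp5s* and *Atp5sl*, which carry the symbol but are not counted as subunits here. *Ndufa4* and its paralogue *Ndufa4l2* were placed with complex IV, where the NDUFA4 protein resides. All mice were on a C57BL/6 background, were 8 to 12 weeks old and carried the αMHC-Cre transgene, whose *Myh6* promoter drives recombination in CMs from embryonic stages on. CtrlCre mice had intact *Cpt1b* alleles, and Cpt1bcKO mice had floxed *Cpt1b* alleles, which Cre recombines in CMs. *Cpt1b* encodes the enzyme that admits long-chain fatty acids to mitochondria. CMs were released from ventricles by enzymatic perfusion and collected by gentle centrifugation without sorting. The study counts replicates of its differential expression analysis as mice, while the labels do not tie a sample to a single mouse. The P values below measure the spread between these samples.

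The respiratory chain passes electrons from NADH through complex I, and from succinate through complex II, to ubiquinone. Complex III hands them on to cytochrome c, complex IV reduces oxygen, and complex V, the ATP synthase, uses the proton gradient built up by complexes I, III and IV. Adult CMs are packed with mitochondria and rely on this chain for contraction, and most of its subunits are encoded in the nucleus, while a small core is encoded in mitochondrial DNA. Several complex IV subunits exist in a heart and muscle form and a widely expressed form.

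Values are normalized counts, that is, read counts that the authors brought to a common scale with size factors and then rounded. They summed to between 13393411 and 31722217 per sample, of which the mitochondrial rRNA *mt-Rnr2* took 61.8% to 80.8%, and to between 3146414 and 3551692 without mitochondrial-encoded and rRNA genes. The targeted gene *Cpt1b* had 1861, 893 and 1443 normalized counts in CtrlCre and 211, 353 and 285 in Cpt1bcKO samples (log2 fold change −2.27, adjusted P = 0.00338, limma). The labelled cell type was borne out by the 12 CM markers, such as *Myh6* and *Ryr2*, whose summed values were 366230 to 438601 in CtrlCre and 267761 to 313253 in Cpt1bcKO samples, with no overlap. Markers of other cells were far lower. The summed values of 10 fibroblast markers were 1104 to 1470 in CtrlCre and 1866 to 2305 in Cpt1bcKO samples, and all 9 that were tested had log2 fold changes above 0, with a median of 1.11. The sums of 10 endothelial markers were 1711 to 3532 and 3229 to 3694, those of 10 smooth muscle and pericyte markers 3971 to 5228 and 2974 to 3401, and those of 10 immune markers 100 to 151 and 116 to 140. All 10 endothelial markers had log2 fold changes above 0, with a median of 0.34, while their sums overlapped between groups. Of the smooth muscle and pericyte markers 4 had log2 fold changes above and 4 below 0, and without *Abcc9*, the most abundant of them, the sums were 1132, 1849 and 2389 in CtrlCre and 1822, 1635 and 1235 in Cpt1bcKO samples and overlapped. Of the atrial genes *Nppa*, which stressed ventricular CMs also express, had 177, 93 and 144 against 683, 452 and 384 normalized counts, whereas *Myl7* (2, 5 and 19 against 7, 9 and 10) and *Myl4* (16, 48 and 102 against 30, 67 and 83) overlapped. Of 5 erythroid markers 2 were in the table and their sum never exceeded 20. Sex is not given in the labels. *Xist* had 957 and 1080 normalized counts in CtrlCre sample 1 and Cpt1bcKO sample 1 and 23 to 78 in the others, whereas the sum of 4 Y-linked genes was 1 and 0 in these 2 samples and 1378 to 1688 in the others, so each group held 1 female and 2 male samples.

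Nuclear-encoded subunit transcripts were on average slightly less abundant in Cpt1bcKO CMs, but no single gene passed the test after adjustment. Of the 93 genes, 89 had a normalized count of at least 10 in at least 3 samples and were tested with limma on log2(value + 1), with P values adjusted over all 11364 genes tested. *Cox4i2*, *Cox6b2*, *Ndufa4l2* and *Atp5l* were below that level, with at most 14 normalized counts in any sample. The log2 fold change of Cpt1bcKO against CtrlCre was below 0 for 69 of the 89 genes (77.5%), against 50.2% of all genes tested. The median was −0.18, or −11.7%, with a range from −0.58 to 0.69, and the median of all genes tested was −0.0013. Leaving out CtrlCre sample 1 or Cpt1bcKO sample 2 brought the median of the set to −0.074 and −0.10, and leaving out Cpt1bcKO sample 1 brought it to −0.28. When each sample was divided by its sum without mitochondrial-encoded and rRNA genes, called rescaling to nuclear mRNA from here on, the median was −0.067 with 55 of 89 genes below 0, while the median of all genes became 0.11. On that scale the medians were −0.034 for complex I, −0.25 for complex II, −0.032 for complex III, −0.15 for complex IV and −0.071 for complex V. After adjustment 0 of the 89 genes had P below 0.05 in limma, and the lowest adjusted P was 0.225, whereas 0.66% of all genes were called higher and 0.906% lower. At an unadjusted P value below 0.05, 6 genes were lower (6.74%) and 1 was higher (1.12%), which did not exceed the 7.22% and 6.66% of all genes. Groups did not overlap for 6 genes that were lower in Cpt1bcKO (6.74%, against 9.6% of all genes) and 2 that were higher (2.25%, against 9.13%). The 6 genes that were lower at an unadjusted P value below 0.05 were *Ndufv1* (chr19:4007497-4012806, minus strand, GRCm38), *Sdhc* (chr1:171127165-171150603, minus), *Uqcrb* (chr13:66900617-66905378, minus), *Cox7b* (chrX:106015700-106022450, plus), *Cox6c* (chr15:35931976-35938246, minus) and *Cox7a1* (chr7:30184144-30186078, plus). The gene that was higher at that threshold was *Ndufb7* (chr8:83566671-83571626, plus). Of these genes, only *Ndufv1* and *Cox6c* had groups that did not overlap. The 95% interval of a typical gene reached 0.42 to either side on the log2 scale, which is wider than the median difference. Without CtrlCre sample 1 or without Cpt1bcKO sample 2 the 6 lower calls went to 0, and they also went to 0 with a single prior variance for all genes, or with rescaling to nuclear mRNA. Without Cpt1bcKO sample 1 they went to 24 of 88 (27.3%, against 10.9% of all genes).

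The samples of a group differed as much as the groups did. Averaged over the 89 genes, the log2 difference from the CtrlCre mean was 0.18, −0.11 and −0.074 in CtrlCre samples 1, 2 and 3 and 0.065, −0.28 and −0.21 in Cpt1bcKO samples 1, 2 and 3. The female sample was the highest of its group in both genotypes, and Cpt1bcKO sample 1 lay above the male CtrlCre samples. CtrlCre sample 1 was the highest of all 6 samples for 54 of the 89 genes, and Cpt1bcKO samples 2 and 3 were the lowest for 35 and 27. Compared within sex, the median log2 difference was −0.16 between the 2 female samples, with 66 of 89 genes below 0, and −0.16 between the 2 male samples of each genotype, also with 66 genes below 0. The corresponding medians of all genes were 0.00 and −0.018. There is 1 female sample per genotype, so the female value has no replicate check.

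**Figure D1:**
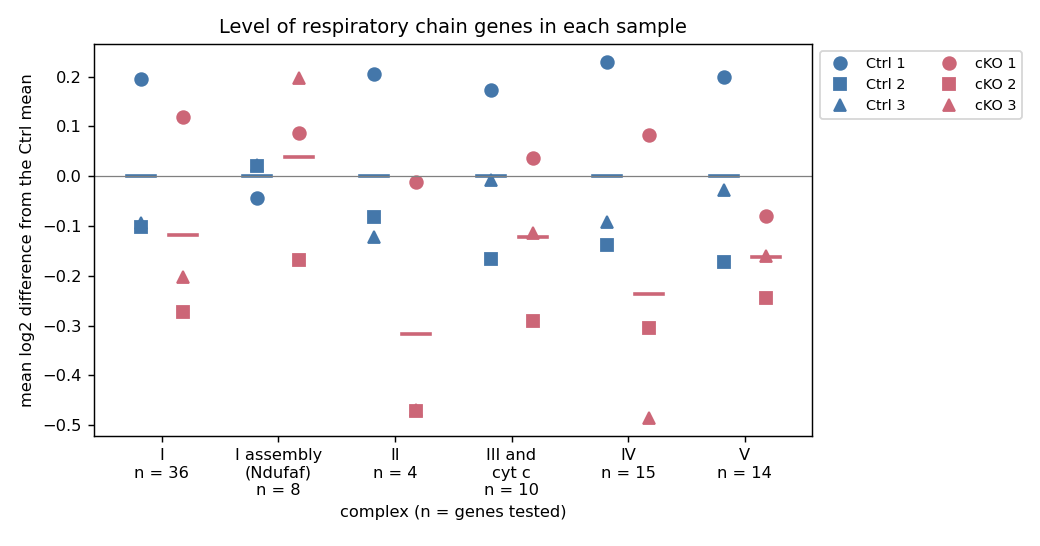
Mean log2 difference from the CtrlCre mean (y axis) in each complex (x axis), with 1 symbol per sample (circle, square and triangle for samples 1, 2 and 3, blue for CtrlCre as Ctrl and red for Cpt1bcKO as cKO) and a line at each group mean. Sample 1, the female one, is the highest of its group in complexes I to V, and the groups overlap in each of them.

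With sex added as a term to the limma model, a choice made after seeing the data, 6 of the 89 genes (6.74%) were lower at an adjusted P value below 0.05 and 0 were higher, when 2.91% of all genes were called lower and 2.14% higher. These were *Cox7b* (adjusted P = 0.0259), *Sdhc* (adjusted P = 0.0262), *Ndufs7* (adjusted P = 0.0351), *Ndufv1* (adjusted P = 0.0460), *Cox5b* (adjusted P = 0.0468) and *Sdha* (adjusted P = 0.0497). At an unadjusted P value below 0.05, 21 genes were lower (23.6%, against 11.3% of all genes) and 1 was higher (1.12%, against 9.57%). The fold changes themselves are the same in both models, because each genotype has the same number of samples of each sex. In the 4 male samples alone, 24 of 88 genes were lower at an unadjusted P value below 0.05 (27.3%, against 9.51% of all genes) and 0 after adjustment.

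The summed normalized counts of the 93 genes were 147018, 114245 and 117916 in CtrlCre and 125921, 98585 and 102928 in Cpt1bcKO samples 1, 2 and 3. As a share of the sum without mitochondrial-encoded and rRNA genes these were 4.14%, 3.29% and 3.43%, and 4.0%, 3.06% and 3.10%. Set against the summed CM markers, the order turned on average, but the groups overlapped, with Cpt1bcKO sample 3 below CtrlCre sample 1. The genes reached 33.5, 31.2 and 30.5 per 100 of the CM marker sum in CtrlCre and 41.4, 36.8 and 32.9 in Cpt1bcKO samples, since all 12 CM markers had log2 fold changes below 0, with a median of −0.37. The part of CM content and of non-CM RNA in the differences of the respiratory chain genes was not tested. In RNA from bulk cells, a smaller share of CMs and less RNA of these genes per CM cannot be told apart.

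Promoter sequences of the genes described most closely are shown because known regulators of respiratory chain genes, NRF1, the ETS factor GABP, YY1 and the oestrogen-related receptors, bind short motifs near the start site. RefSeq promoters (GRCm38.p6) were matched for 74 of the 93 genes, with 79 promoters in all. Each sequence below runs 5′ to 3′ over 170 bases before and 30 bases after the start given by RefSeq, which can differ from the gene start in the table, with the NRF1 letters GCGCATGC, or their reverse complement, in capitals. *Ndufv1* had the lowest P value of the set, *Ndufb7* was the only gene higher at an unadjusted P value below 0.05, and *Cycs*, *Sdhb*, *Ndufaf4* and *Cox6a1* show the motif.
*Ndufv1*, chr19:4012726-4012925, minus strand: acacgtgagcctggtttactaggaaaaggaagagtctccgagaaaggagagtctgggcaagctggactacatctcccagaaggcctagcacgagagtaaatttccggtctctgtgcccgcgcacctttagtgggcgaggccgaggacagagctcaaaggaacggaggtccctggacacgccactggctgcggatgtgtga
*Ndufb7*, chr8:83566588-83566787, plus strand: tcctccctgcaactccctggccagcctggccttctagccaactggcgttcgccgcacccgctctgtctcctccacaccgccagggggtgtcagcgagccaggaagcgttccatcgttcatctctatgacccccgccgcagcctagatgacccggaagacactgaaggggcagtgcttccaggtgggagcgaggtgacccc
*Cycs*, chr6:50566540-50566739, minus strand: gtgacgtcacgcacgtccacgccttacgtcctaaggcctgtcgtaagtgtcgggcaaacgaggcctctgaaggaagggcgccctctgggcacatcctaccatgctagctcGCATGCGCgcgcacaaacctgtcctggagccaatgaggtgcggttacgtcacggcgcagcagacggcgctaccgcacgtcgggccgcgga
*Sdhb*, chr4:140961101-140961300, plus strand: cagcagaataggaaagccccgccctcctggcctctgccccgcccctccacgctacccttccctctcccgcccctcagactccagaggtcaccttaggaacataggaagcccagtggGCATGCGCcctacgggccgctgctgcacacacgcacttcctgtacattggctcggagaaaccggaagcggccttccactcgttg
*Ndufaf4*, chr4:24897913-24898112, plus strand: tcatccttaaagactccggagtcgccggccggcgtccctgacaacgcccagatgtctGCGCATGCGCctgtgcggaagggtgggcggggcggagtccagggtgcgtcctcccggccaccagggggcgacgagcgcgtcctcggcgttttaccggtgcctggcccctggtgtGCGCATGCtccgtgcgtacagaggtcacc
*Cox6a1*, chr5:115348929-115349128, minus strand: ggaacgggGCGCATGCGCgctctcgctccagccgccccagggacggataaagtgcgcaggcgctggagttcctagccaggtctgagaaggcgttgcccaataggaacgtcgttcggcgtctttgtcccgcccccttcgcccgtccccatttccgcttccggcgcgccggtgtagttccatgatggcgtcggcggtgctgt

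Over the full RefSeq windows of 250 bases before to 50 after the start, GCGCATGC was found on either strand in 13 of the 79 promoters (16.5%), against 2.71% of all 32851 promoters and 5.01% of the 12774 promoters of protein-coding genes in the table. The YY1 letters AAGATGGC were found in 10 (12.7%, against 2.75% and 4.23%), and the oestrogen-related receptor letters AAGGTCA in 8 (10.1%, against 4.72% and 3.15%). The ETS letters CCGGAAGT were found in 5 (6.33%, against 3.89% and 7.66%). GCGCATGC and its reverse complement share letters, so a single place can match on both strands, as in *Ndufaf4* and *Cox6a1*. The windows of *Ndufv1* and *Ndufb7* held none of the 4 motifs. Of the 13 genes with GCGCATGC 12 were tested, and 10 of these had log2 fold changes below 0 and 2 above, with a median of −0.14, beside 69 of 89 and −0.18 for the whole set. The 2 above 0 were *Cox6a1* (0.22) and *Ndufaf5* (0.030). The corresponding counts were 8 below and 2 above 0 for AAGATGGC, 3 below and 4 above for AAGGTCA and 4 below and 1 above for CCGGAAGT.

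Complex I takes up electrons from NADH at its peripheral arm and pumps protons through its membrane arm. All 36 subunits in the set were tested. The log2 fold change was below 0 for 30 of them, with a median of −0.15, and before adjustment 1 gene was lower and 1 higher (2.78% each, against 7.22% and 6.66% of all genes). The median was −0.27 without Cpt1bcKO sample 1, −0.24 without CtrlCre sample 2, −0.061 without Cpt1bcKO sample 2 and −0.056 without CtrlCre sample 1. *Ndufv1*, the flavin-binding subunit that oxidizes NADH, had 2421, 1866 and 1928 normalized counts in CtrlCre and 1616, 1434 and 1572 in Cpt1bcKO samples. Every Cpt1bcKO sample was below every CtrlCre sample, at a log2 fold change of −0.42 ± 0.146 (SE, adjusted P = 0.225, limma). *Ndufs1*, the largest iron–sulfur subunit, had 4208, 3943 and 3891 against 3595, 3243 and 3344 normalized counts, again without overlap (log2 fold change −0.24, adjusted P = 0.440, limma). *Ndufs7*, which holds the last iron–sulfur cluster before ubiquinone, had 1576, 1041 and 1121 against 1223, 748 and 804. In this gene the female Cpt1bcKO sample exceeded both male CtrlCre samples, so the groups overlapped despite a log2 fold change of −0.44 (adjusted P = 0.404, limma). The accessory subunit *Ndufa7* had 167, 139 and 173 against 149, 112 and 113 (log2 fold change −0.36, adjusted P = 0.431, limma).

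*Ndufb7*, an accessory subunit of the membrane arm, had the highest log2 fold change. It had 229, 399 and 153 normalized counts in CtrlCre and 338, 386 and 453 in Cpt1bcKO samples, with a log2 fold change of 0.69 (standard error 0.294, unadjusted P = 0.0399, adjusted P = 0.329, limma). CtrlCre sample 2 lay within the range of the Cpt1bcKO samples, and this call before adjustment was lost without CtrlCre sample 1 (0.65) or 3 (0.36), without Cpt1bcKO sample 2 (0.70) or 3 (0.58), in male samples alone (0.76) and with 1 prior variance. Without CtrlCre sample 2 the log2 fold change was 1.05 and the call stayed (unadjusted P = 0.00134, limma). The spread of the CtrlCre samples (260.3 ± 126.0, SD, n = 3) was wider than that of the Cpt1bcKO samples (392 ± 57.8, SD, n = 3). *Ndufa1*, an X-linked accessory subunit named here because its groups did not overlap, had 99, 104 and 107 against 130, 109 and 127 (log2 fold change 0.23, adjusted P = 0.597, limma). Other subunits with values above 0 included *Ndufb4* (13, 12 and 4 against 24, 8 and 4) and *Ndufs5* (22, 10 and 13 against 25, 17 and 13), whose log2 fold changes of 0.10 and 0.30 rest on low values.

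The assembly factors help to build complex I and are not part of the finished enzyme. Their median lay on the other side of 0 from that of the subunits, but their sample means overlapped between groups. These means were −0.044, 0.021 and 0.023 in CtrlCre and 0.087, −0.17 and 0.20 in Cpt1bcKO samples 1, 2 and 3. All 8 were tested, 6 had log2 fold changes above 0, and the median was 0.079, with values from 0.022 without CtrlCre sample 3 to 0.20 without Cpt1bcKO sample 1. None of the 8 reached an unadjusted P value below 0.05. *Ndufaf3* had 67, 60 and 62 normalized counts in CtrlCre and 68, 75 and 93 in Cpt1bcKO samples, and *Ndufaf1* had 126, 149 and 168 against 190, 165 and 171. The *Ndufaf3* groups did not overlap, by a margin of 1 normalized count, and those of *Ndufaf1* did. *Ndufaf4*, with the NRF1 letters in its promoter shown above, had 588, 560 and 512 against 553, 323 and 401 (log2 fold change −0.41, adjusted P = 0.385, limma), and *Ndufaf6* had 34, 37 and 38 against 40, 18 and 25. In both, the male Cpt1bcKO samples were below all CtrlCre samples and the female one was not. The difference between the medians of subunits and assembly factors was not tested.

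**Figure D2:**
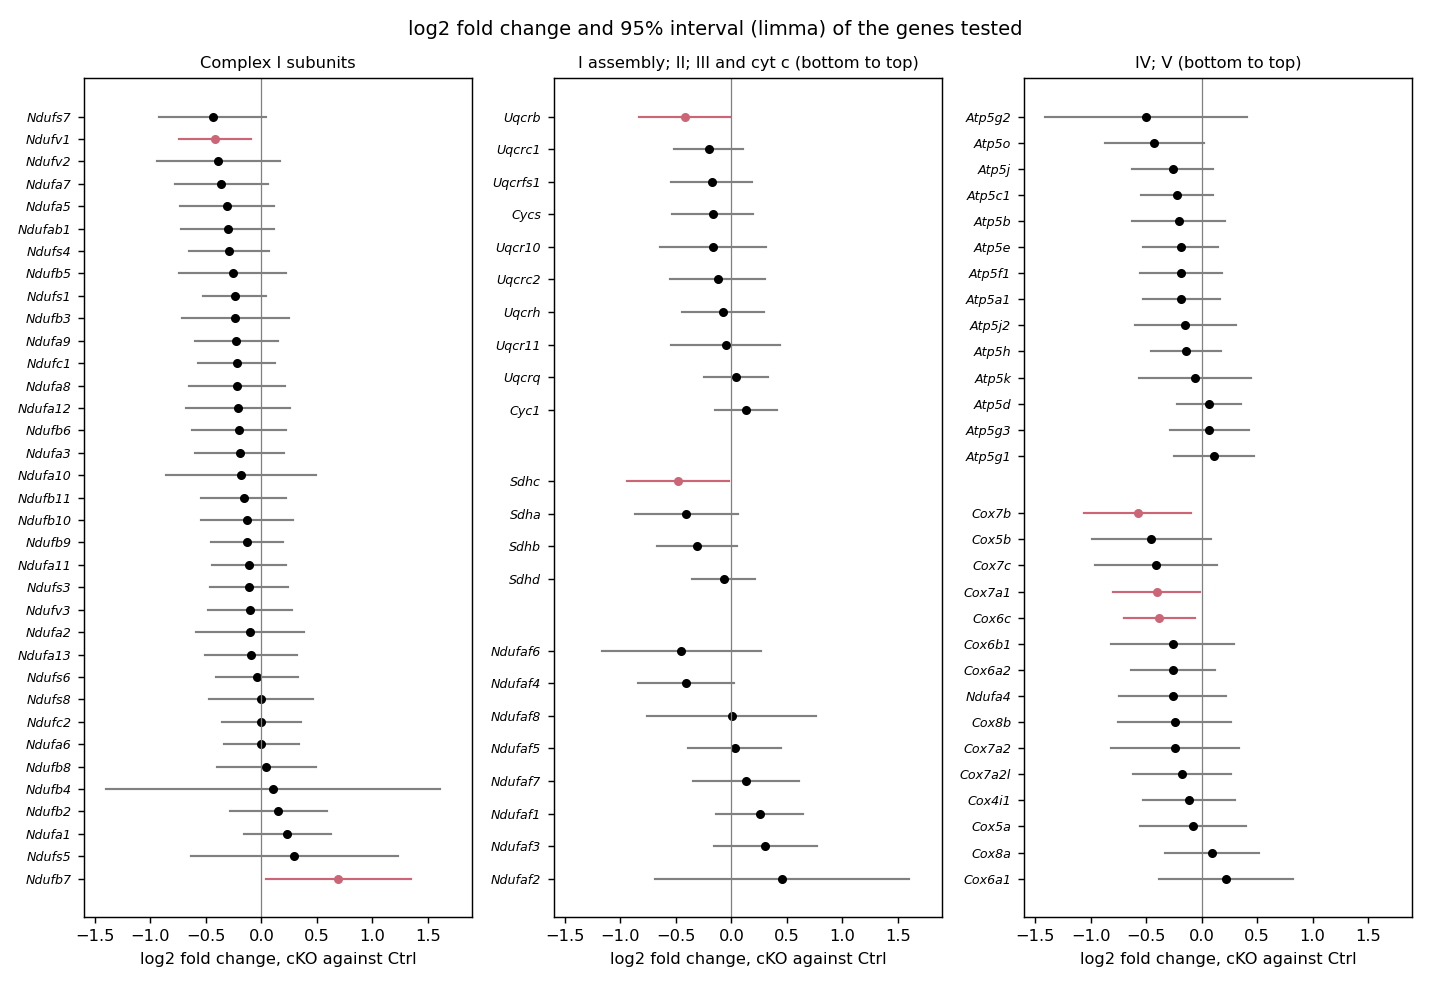
log2 fold change of Cpt1bcKO (cKO) against CtrlCre (Ctrl) on the x axis for the genes tested (y axis, by complex, with *Atp5s*, *Atp5sl* and 1 other gene not drawn), with 95% intervals from limma. Intervals that do not include 0 are red, as for *Ndufv1* (−0.42) and *Ndufb7* (0.69), and most of the other points lie below 0 with intervals that include it.

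Complex II, succinate dehydrogenase, links the chain to the Krebs cycle and is encoded entirely in the nucleus. All 4 subunits had log2 fold changes below 0, with a median of −0.36 that ranged from −0.53 without Cpt1bcKO sample 1 to −0.23 without CtrlCre sample 1. This median was the lowest of the complexes with all samples, but not without Cpt1bcKO sample 2 (−0.26, against −0.30 in complex IV) nor between the female samples, where complexes II and V were close (−0.27 and −0.28). The membrane anchor *Sdhc* had 989, 687 and 721 normalized counts in CtrlCre and 754, 485 and 490 in Cpt1bcKO samples (log2 fold change −0.48, standard error 0.209, unadjusted P = 0.0423, adjusted P = 0.339, limma). Without CtrlCre sample 1 the log2 fold change of *Sdhc* was −0.32. *Sdha*, the flavoprotein that oxidizes succinate, had 5463, 4212 and 3656 against 4405, 2827 and 2901 (log2 fold change −0.41, adjusted P = 0.422, limma). The iron–sulfur subunit *Sdhb*, with the NRF1 letters in its promoter, had 2022, 1638 and 1649 against 1715, 1267 and 1319 (log2 fold change −0.31, adjusted P = 0.426, limma). In these 3 genes the same pattern appeared, in that both male Cpt1bcKO samples were below all CtrlCre samples, while the female Cpt1bcKO sample was below the female CtrlCre sample but above the male ones. The other anchor, *Sdhd*, differed little, with 1411, 1464 and 1427 against 1483, 1354 and 1266 (log2 fold change −0.071, 95% interval from −0.36 to 0.22), and its sign turned with rescaling to nuclear mRNA.

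Complex III and cytochrome c move electrons from ubiquinol to complex IV. Of the 10 genes, 8 had log2 fold changes below 0, with a median of −0.14. It was −0.25 without Cpt1bcKO sample 1, −0.24 without CtrlCre sample 2, −0.034 without CtrlCre sample 1 and −0.027 without Cpt1bcKO sample 2. *Uqcrb*, a small subunit near the ubiquinone site, had 1601, 1056 and 1253 normalized counts in CtrlCre and 1136, 817 and 952 in Cpt1bcKO samples (log2 fold change −0.42, unadjusted P = 0.0455, adjusted P = 0.348, limma), and the groups overlapped. Without CtrlCre sample 1 the log2 fold change of *Uqcrb* was −0.26 (unadjusted P = 0.177, limma). Only 83.3% of the 75-base windows of its exons occurred in no other gene, so some of its reads may have been left out of the count. *Uqcrc1*, a core subunit, had 3615, 2808 and 3111 against 2727, 2704 and 2791, without overlap and with a narrow Cpt1bcKO group (log2 fold change −0.21, adjusted P = 0.565, limma). *Uqcrfs1*, the Rieske iron–sulfur protein, had 4668, 3829 and 3873 against 4452, 3256 and 3292, and *Cycs*, cytochrome c itself, had 2146, 1666 and 1748 against 1981, 1477 and 1497. Their log2 fold changes were −0.18 and −0.17. *Cyc1*, cytochrome c1, was among the 2 genes above 0, with 1147, 1064 and 1080 against 1211, 1137 and 1255 (log2 fold change 0.13, adjusted P = 0.698, limma).

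Complex IV, cytochrome c oxidase, had 15 tested genes, of which 13 had log2 fold changes below 0, with a median of −0.26, and before adjustment 3 were lower (20%, against 7.22% of all genes), all of which lost that call without CtrlCre sample 1, without Cpt1bcKO sample 2, with 1 prior variance and with rescaling to nuclear mRNA. The median was −0.43 without Cpt1bcKO sample 1, −0.10 without CtrlCre sample 1 and −0.057 without Cpt1bcKO sample 3. *Cox7b*, an X-linked small subunit, had 4202, 2843 and 3552 normalized counts in CtrlCre and 3197, 1833 and 2186 in Cpt1bcKO samples. This was the lowest fold change of the whole set (log2 −0.58, standard error 0.217, adjusted P = 0.266, limma), yet Cpt1bcKO sample 1 was above CtrlCre sample 2. *Cox6c*, another small subunit, had 2426, 2128 and 2548 against 1811, 1627 and 2027, with no overlap (log2 fold change −0.38, adjusted P = 0.266, limma). *Cox7a1*, the heart and muscle form of subunit 7a, had 748, 797 and 641 against 698, 486 and 484 (log2 fold change −0.41, adjusted P = 0.346, limma). Here the male Cpt1bcKO samples were the lowest of all. *Cox5b*, a zinc-binding subunit, had 1890, 1170 and 1407 against 1545, 895 and 877 (log2 fold change −0.45, adjusted P = 0.439, limma). *Cox4i1* and *Cox5a*, subunits close to the catalytic core, had log2 fold changes of −0.11 and −0.077, and both turned positive with rescaling to nuclear mRNA and without CtrlCre sample 1.

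The heart and muscle forms of complex IV subunits were compared with the widely expressed forms as log2 ratios within each sample. The ratio of *Cox6a2* to *Cox6a1* was 2.23, 2.79 and 2.08 in CtrlCre and 1.78, 1.78 and 2.10 in Cpt1bcKO samples, a difference of −0.48 (exact two-sided permutation test, P = 0.20). *Cox6a2* had 172, 193 and 151 against 147, 150 and 132 normalized counts, without overlap, and *Cox6a1*, whose promoter is shown above, had 36, 27 and 35 against 42, 43 and 30. The muscle form was the more abundant one in every sample. For *Cox8b* to *Cox8a* the difference was −0.34 (exact permutation P = 0.40) and for *Cox7a1* to *Cox7a2* it was −0.17 (exact permutation P = 0.70). Leaving out 1 sample moved these differences to between −0.62 and −0.26 for *Cox6a2* (the latter without CtrlCre sample 2), between −0.59 (without Cpt1bcKO sample 1) and −0.19 (without Cpt1bcKO sample 3) for *Cox8b*, and between −0.35 (without CtrlCre sample 1 or Cpt1bcKO sample 3) and −0.0075 (without CtrlCre sample 2) for *Cox7a1*. In complex V, where *Atp5g1*, *Atp5g2* and *Atp5g3* encode the same mature ring subunit, the ratios of *Atp5g1* and *Atp5g3* to *Atp5g2* were higher by 0.61 and 0.57 (exact permutation P = 0.30 for each), but *Atp5g2* had only 19 to 65 normalized counts and 64.2% of its windows were unique. Without CtrlCre sample 1 these values were 0.33 and 0.32, and without CtrlCre sample 2 they were 1.03 and 0.97. Across the 8 ratios examined, the groups overlapped in each, every Benjamini–Hochberg adjusted P of the exact permutation tests was 0.80, and 3 samples against 3 cannot go below P = 0.10. The remaining 3 ratios each included a gene below the level for testing, *Cox4i2*, *Cox6b2* or *Ndufa4l2*.

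Complex V had 14 tested genes, 11 with log2 fold changes below 0 and a median of −0.18, and none of the 14 reached an unadjusted P value below 0.05. The median was −0.097 without CtrlCre sample 1 and −0.099 without Cpt1bcKO sample 2. *Atp5a1*, the α-subunit of the catalytic head, had 18396, 15045 and 15629 normalized counts in CtrlCre and 14868, 13838 and 14382 in Cpt1bcKO samples. The groups did not overlap, at a log2 fold change of −0.18 (adjusted P = 0.654, limma). *Atp5b*, the catalytic β-subunit, had 23062, 16331 and 16828 against 18464, 14914 and 15059 (log2 fold change −0.20, adjusted P = 0.679, limma). *Atp5o*, the stalk subunit that confers oligomycin sensitivity, had 2328, 1730 and 1699 against 1831, 1386 and 1110 (log2 fold change −0.43, unadjusted P = 0.0583, adjusted P = 0.380, limma), with 65.8% unique windows and exons that overlap other annotated genes. The γ-subunit gene *Atp5c1* had a log2 fold change of −0.22, the stalk subunit *Atp5j* of −0.26 and the ε-subunit *Atp5e* of −0.19. Outside the complex, *Atp5s* had 155, 133 and 81 against 106, 92 and 80, and *Atp5sl* 91, 58 and 40 against 83, 53 and 72.

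**Figure D3:**
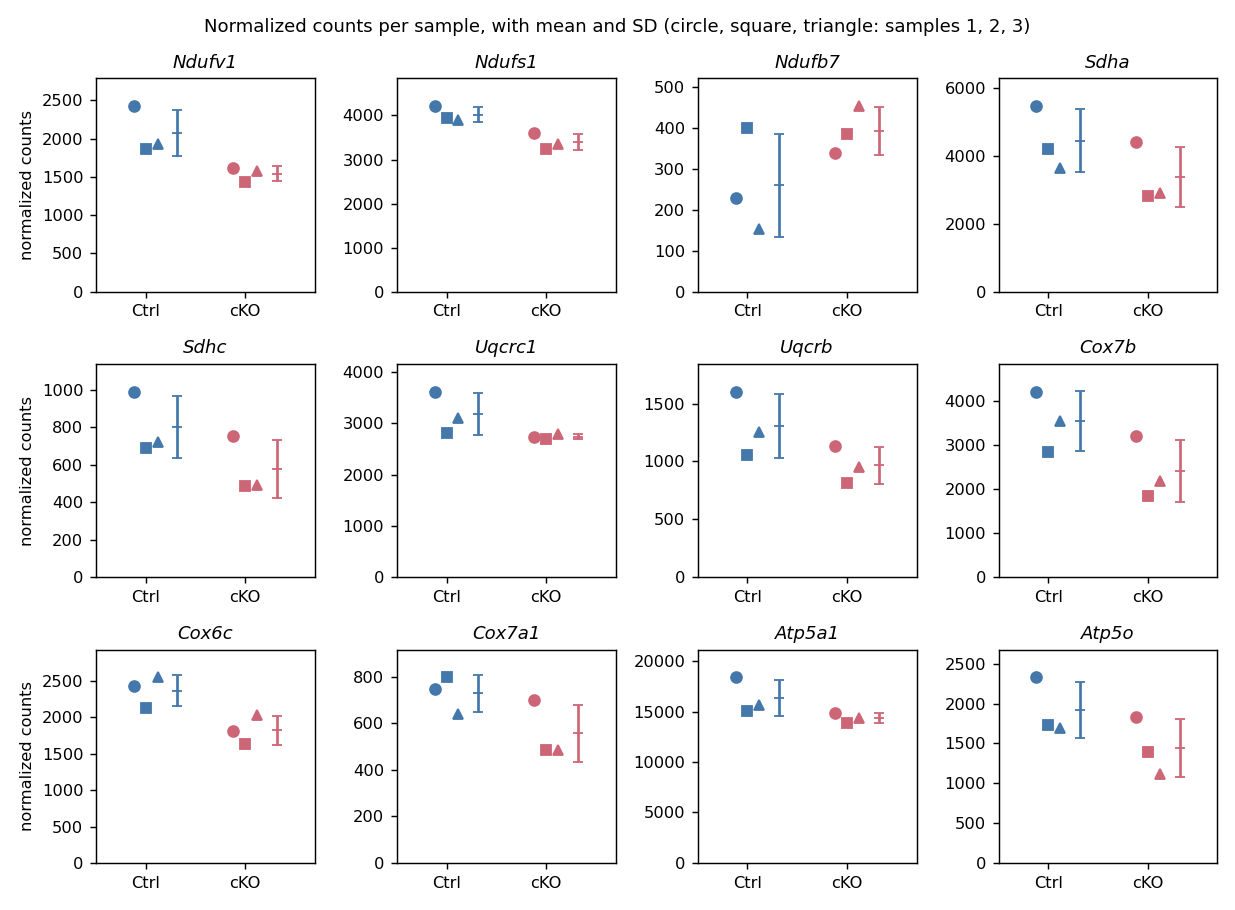
Normalized counts (y axis, starting at 0) of 12 genes in CtrlCre (Ctrl, blue) and Cpt1bcKO (cKO, red) samples, with circle, square and triangle for samples 1, 2 and 3 and the group mean with SD beside them. The groups do not overlap for *Ndufv1*, *Ndufs1*, *Uqcrc1*, *Cox6c* and *Atp5a1*, and *Ndufb7* is the gene with higher Cpt1bcKO values.

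Levels of the 89 tested genes were compared per kilobase of exon in CtrlCre CMs, and the genes below the level for testing were not ranked. *Atp5a1* (5217 ± 571 normalized counts per kilobase, SD, n = 3) and *Atp5b* (4423 ± 885) were the highest and overlapped each other, and *Atp5b* did not overlap *Cox8b* (3137 ± 215), the next in order. *Uqcrfs1* and *Cox7b* followed with 3025 and 2910. The proteins of *Atp5a1* and *Atp5b* form the catalytic head of the ATP synthase. Among the lowest values were *Ndufaf2* (4.59), *Ndufb4* (5.05) and *Ndufb2* (12.3). Only 36.8% of the windows of *Ndufaf2* were unique and 65.6% of its exon bases overlap another gene, so its level is uncertain. For *Ndufb4* 82.8% of the windows were unique. For *Ndufb2* they were 96.0%, but its value was divided by 5628 exon bases joined over all annotated transcripts. These 2 levels are therefore uncertain as well. Of the 88 neighbouring pairs in this order, 82 overlapped, so the exact order is not resolved.

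The mitochondrial-encoded subunits lay on the other side of 0. Of the 13, 8 were in the table, and all 8 had log2 fold changes above 0, with a median of 0.26. *mt-Nd3*, a small membrane subunit of complex I, had 156, 161 and 148 normalized counts in CtrlCre and 251, 258 and 246 in Cpt1bcKO samples (log2 fold change 0.70, adjusted P = 0.0528, limma). These values are far below those of the other mitochondrial-encoded genes in the table, whose lowest was 66453 (*mt-Nd4*, Cpt1bcKO sample 1). The reason for the low *mt-Nd3* values was not tested. *mt-Nd2* had 85665, 90550 and 73663 against 94852, 114345 and 129250, also without overlap (log2 fold change 0.43, adjusted P = 0.440, limma), and the third gene by P value, *mt-Nd6*, overlapped (log2 fold change 0.55, adjusted P = 0.441, limma). *mt-Co1*, the catalytic subunit of complex IV, had 951466, 683983 and 573180 against 842584, 738675 and 940640 and overlapped widely. The share of *mt-Rnr2* in the total was 63.2% to 64.6% in CtrlCre and 61.8%, 72.6% and 80.8% in Cpt1bcKO samples 1, 2 and 3, so it was high in the same samples 2 and 3 as the mitochondrial-encoded subunits but not in sample 1. Its part in the result was not tested.

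**Figure D4:**
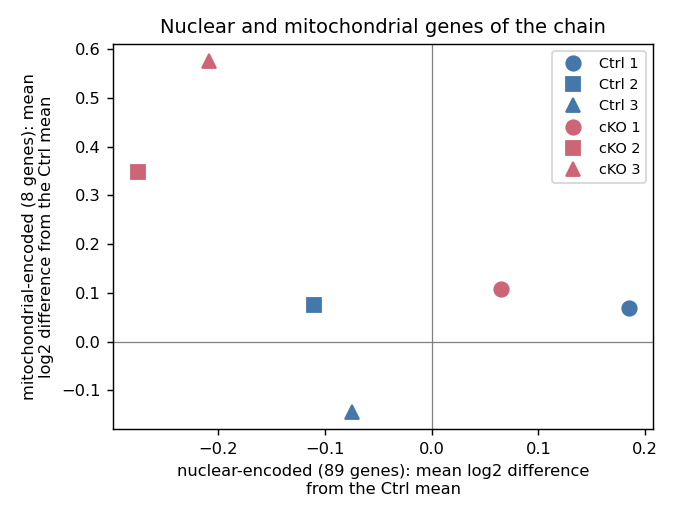
Mean log2 difference from the CtrlCre mean over 89 nuclear-encoded genes (x axis) and 8 mitochondrial-encoded genes (y axis), with 1 symbol per sample (blue for CtrlCre as Ctrl, red for Cpt1bcKO as cKO). Cpt1bcKO samples 2 and 3 have the lowest nuclear (−0.28 and −0.21) and the highest mitochondrial values (0.35 and 0.57), and Cpt1bcKO sample 1 lies nearest to CtrlCre sample 1.

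Assembly factors outside the Nduf family and regulators of respiratory chain genes were examined as background lists. Of 46 tested assembly factors for the 5 complexes, 25 had log2 fold changes above 0 and 21 below, with a median of 0.012, and 0 reached an adjusted P value below 0.05. At an unadjusted P value below 0.05, 3 were higher (6.52%, against 6.66% of all genes) and 1 was lower (2.17%, against 7.22%). *Coa7*, a complex IV assembly factor, had 95, 76 and 86 normalized counts in CtrlCre and 74, 39 and 36 in Cpt1bcKO samples (log2 fold change −0.84, adjusted P = 0.210, limma). *Acad9*, which assembles complex I, had 108, 106 and 90 against 129, 148 and 140 (log2 fold change 0.45, adjusted P = 0.278, limma), and *Higd1a* and *Cox14*, both linked to complex IV, had log2 fold changes of 0.45 each. The groups did not overlap for these 4 genes, nor for 3 others of the list, so that 4.35% of the list was lower and 10.9% higher without overlap, against 9.6% and 9.13% of all genes.

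Of 17 regulators tested, 9 had log2 fold changes above 0 and 8 below, and 0 passed after adjustment. *Gabpa*, the DNA-binding subunit of GABP, had 437, 396 and 374 normalized counts in CtrlCre and 319, 238 and 219 in Cpt1bcKO samples, with no overlap (log2 fold change −0.65, standard error 0.176, adjusted P = 0.117, limma). *Ppargc1b*, a coactivator of mitochondrial genes, had 227, 183 and 157 against 221, 255 and 281 (log2 fold change 0.42, adjusted P = 0.345, limma), and *Tfb1m*, a methyltransferase of mitochondrial rRNA, had 34, 19 and 26 against 41, 37 and 41 (log2 fold change 0.61, adjusted P = 0.385, limma). The groups did not overlap for 3 regulators that were lower (17.6%, against 9.6% of all genes) and for 1 that was higher, *Tfb1m* (5.88%, against 9.13%). Before adjustment 1 regulator was lower, *Gabpa*, and 1 higher, *Ppargc1b* (5.88% each, against 7.22% and 6.66%). *Nrf1* and the muscle regulator *Perm1*, named because their groups did not overlap, had log2 fold changes of −0.47 and −0.29 (adjusted P = 0.438 and 0.422, limma). *Ppargc1a*, the better known coactivator, had 1243, 1276 and 1133 against 1190, 1366 and 961 (log2 fold change −0.067), and is named for its role.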

How the data were processed

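RNA-seq of CMs was compared between 3 CtrlCre and 3 Cpt1bcKO samples, grouped by their labels. The authors trimmed reads with Trimmomatic 0.36, aligned them to mm10 (GRCm38.p5) with STAR 2.5.4b, counted them on genes with featureCounts 1.6.0 and left out reads on several genes or regions. The libraries were made with a stranded kit. The strand setting of the counting and the annotation release behind it are not given in the sources used here. The deposited values are a score rather than raw counts, because the authors divided counts by a DESeq2 (1.14.1) size factor and rounded them. Sample values lay 4.94% (CtrlCre) and 4.19% (Cpt1bcKO) below the authors' group means for abundant genes, so the size factors behind both may differ, by 0.011 on the log2 scale between groups. The deposited log2 fold changes and the deposited p-values of the authors' own comparison were not used. Raw depth per sample is therefore unknown, beyond an average per library in the methods, and no counting interval was given.

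Values were transformed to log2(value + 1) and genes with at least 10 in at least 3 samples were tested with limma 3.58.1 (R 4.3.3, lmFit and eBayes with a variance trend), adjusted after Benjamini–Hochberg. Fold changes on this scale understate changes of low genes. The script was tested on simulated data. Isoform ratios used exact permutation tests. Python 3.11.15 served for tables and plots. Motifs were searched in RefSeq promoters, and uniqueness of 75-base exon windows was computed on GENCODE vM21. Members and gene lists were chosen with earlier results of these data known. Named genes were the 4 lowest P values per complex, defining subunits, isoform pairs, members below the filter, and the 3 lowest P values of each related list, and the text says where others were named for what their values showed. A gene is not reported here by name but is part of the counts and medians. *Ndufa1*, *Ndufb2*, *Ndufb4*, *Ndufs5*, *Ndufaf2*, *Ndufaf5*, *Cox14*, *mt-Co1* and the genes in the marker lists were also named after their values were seen. Alternatives were other pseudocounts, filters, scaling, a replicate block, 1 prior variance, leaving out each sample, and, chosen after seeing the data, sex as a term, male samples alone and members with at least 90% unique windows.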

Additional observations from a re-analysis of the deposited data

How the results depend on the processing

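Among 51 named genes, 501 of 510 fits under the 10 alternatives that can move a fold change kept its sign. The 9 exceptions concerned 6 genes. Leaving out 1 sample at a time, the log2 fold change reached −0.27 for *Cox4i1*, −0.26 for *Cox5a* and −0.45 for *Cox7a2* (without Cpt1bcKO sample 1), and 0.22 for *Atp5g3* and 0.49 for *Atp5sl* (without CtrlCre sample 1). With rescaling to nuclear mRNA the sign turned for *Cox4i1* (0.0022), *Cox5a* (0.034) and *Sdhd* (0.041). Without CtrlCre sample 1 it turned for *Cox4i1* (0.042) and *Cox5a* (0.072), and without CtrlCre sample 3 for *Atp5g3* (−0.023) and *Atp5sl* (−0.091). Without Cpt1bcKO sample 3 it turned for *Cox5a* (0.095) and *Cox7a2* (0.034). The ratios of *Cox4i1* to *Cox4i2* (0.57, range −0.77 to 0.57) and *Ndufa4l2* to *Ndufa4* (−0.084, range −0.084 to 1.55) turned without CtrlCre sample 1, and that of *Cox6b2* to *Cox6b1* (−0.12, range −0.12 to 1.12) without CtrlCre sample 2. The cause was not tested.

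The scaling shifted the median of all genes by 0.11 and that of the 89 genes to −0.067, so that 55 were below 0. Relative to the median of all genes the 89 genes were at −0.17 with this scaling and at −0.18 without it, and 68 and 69 lay below it. Before adjustment it called 1221 genes higher and 500 lower (limma), with 0 respiratory chain genes among the lower ones. It also called 3 mitochondrial-encoded genes (1 adjusted), from a list of 8 in the main test. This list count was not tested against the shares of all genes. A pseudocount of 5, or at least 10 in every sample, also gave 1 adjusted mitochondrial-encoded call, and the median of all genes was −0.019 with that filter and 0.023 without a filter. With 1 prior variance, 23 higher and 18 lower genes passed adjustment, 0 respiratory chain genes reached an unadjusted P value below 0.05 in either direction, and *Cpt1b* (−2.27) lost its call.

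Same-numbered samples correlated in their deviations from the group means with r of 0.376, 0.255 and 0.0684 across genes. The third pair was below 0.1, so the numbers were not taken to pair the samples, although both samples numbered 1 are female and the others male. CtrlCre sample 3 correlated better with Cpt1bcKO sample 2 (0.119). The replicate block gave 249 higher and 354 lower genes after adjustment, and 1289 lower genes unadjusted. Among respiratory chain genes 7 were lower after adjustment (7.87%, against 3.12% of all genes) and 22 unadjusted (24.7%, against 11.3%). In the related lists the block gave unadjusted calls in either direction for 7 of 46 other assembly factors (15.2%) and 3 of 8 mitochondrial-encoded genes (37.5%). For regulators these were 3 of 17 (17.6%), against 20.8% of all genes. After adjustment 1 mitochondrial-encoded gene (12.5%) and 1 regulator (5.88%) were called, against 5.31% of all genes.

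Sex as a term was chosen after seeing the data. It gave 243 higher (2.14%) and 331 lower genes (2.91%) after adjustment, and 1087 (9.57%) and 1280 (11.3%) unadjusted. Among respiratory chain genes 6 were lower after adjustment (6.74%) and 21 unadjusted (23.6%). Unadjusted, 3 of 8 mitochondrial-encoded genes (1 adjusted), 4 of 17 regulators (1 adjusted, *Gabpa*) and 6 of 46 other assembly factors were called. These list counts hold both directions and were not tested against the shares of all genes. Male samples alone gave 119 higher and 127 lower genes after adjustment, of 10835 tested, with a median of all genes of −0.020. Unadjusted, 894 genes were higher and 1030 lower (9.51%), with 0 higher and 24 lower respiratory chain genes (27.3%). In either direction 7 other assembly factors and 4 mitochondrial-encoded genes were called unadjusted, from lists of 46 and 8 genes in the main test. After adjustment 1 regulator was called, from a list of 17. These list counts were also not tested against the shares of all genes. With only the members of at least 90% unique windows, 5 of 71 were lower unadjusted (7.04%, against 7.22% of all genes in the main test). There, 1 was higher (1.41%, against 6.66%).

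Leaving out 1 sample at a time, 17 to 137 higher and 23 to 168 lower genes passed adjustment, and 434 to 995 and 538 to 1213 without it. The respiratory chain genes had 0 to 24 lower and 0 to 1 higher calls unadjusted and 0 to 1 lower call adjusted, each highest count of lower calls being without Cpt1bcKO sample 1. Their median ranged from −0.28 without that sample to −0.074 without CtrlCre sample 1, with 58 to 71 genes below 0. Other assembly factors had 1 to 8 unadjusted and 0 to 1 adjusted calls, mitochondrial-encoded genes 1 to 3 unadjusted and regulators 1 to 3 unadjusted and 0 to 1 adjusted calls. The lists held 46, 8 and 17 genes in the main test. Each of these highest counts was reached without Cpt1bcKO sample 1. In that fit 995 genes were higher and 1213 lower (10.9%) unadjusted, of 11123 tested. The list counts were not tested against the shares of all genes. Because the depth of each sample is unknown, the study giving an average per library, changes of genes with values near 10 could not be resolved.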
